A study of Mus musculus with 12 samples.

Results

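Tumours of 344SQ, a mouse lung adenocarcinoma line labelled highly metastatic, were compared with tumours of 393LN, a line labelled intermediately metastatic. Every array labelled 344SQ or 393LN was taken, which gave 8 of the 12 arrays of the series, 4 for each line, and the comparison covered 18193 genes. The other 4 arrays are of 393P, a line labelled non-metastatic that was grown from a primary lung tumour of the mouse that also gave 393LN. They serve here to show where the contrast of 344SQ with 393LN differs from its contrast with 393P. Mouse 393 gave 393LN from a mediastinal lymph node, and mouse 344 gave 344SQ from under the skin. Both mice carried the alleles p53R172H∆g/+ and K-rasLA1/+, so a mutant p53 and an oncogenic K-ras are shared by all 3 lines. Each line is a mass population from 1 site of 1 mouse, kept by serial passage. A difference between 344SQ and either 393 line is therefore also a difference between 2 mice. The arrays measured total RNA of dissected and frozen tumours that had formed in syngeneic mice, and cells of the host contribute to it. The labels do not say whether the 4 tumours of a line came from separate mice, so the p-values measure the spread between these samples only. The labels also carry sample numbers, and those of 393LN are all lower than those of 344SQ and 393P, which interleave. The labels do not say what the numbers stand for. Any difference of 393LN from the other lines coincides with this split in numbers, and the part of the split was not tested.

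Carcinoma cells are bound to one another by cadherins, by the claudins of tight junctions and by desmosomes, and they keep an epithelial splicing programme that depends on Esrp1. The zinc finger factors Zeb1, Zeb2 and Snai2 repress many of these genes when cells take on a mesenchymal state, and they bind DNA at the E-box CACCTG. Lung adenocarcinomas are usually marked by Nkx2-1, and in mice tumours that lose this factor are known to express genes of stomach and gut together with Hnf4a, Foxa1 and Foxa2.

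Levels are given as log2(intensity + 16), on which the lowest possible value is 4.09, and changes as the difference of these levels, 344SQ minus 393LN, with the standard error (SE) of the fit. A fold therefore understates the change of a dim gene. "Rose" and "fell" are used only where limma's moderated test gave an adjusted p under 0.05. Values of single arrays are listed in the order of replicates 1 to 4, which is accession order and pairs no samples. Array medians lay between 7.19 and 7.29. The keratin genes Krt8 and Krt18 of simple epithelia stood between 13.64 and 14.30 on all 8 arrays, and Nkx2-1 between 4.09 and 4.57, so the epithelial nature of the tumours is seen on the arrays but the defining lung factor is at or near the floor in both lines. Its change was 0.05 (adjusted p = 0.852).

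In all, 725 genes rose and 1259 fell in 344SQ tumours, 3.99% and 6.92% of those tested, or 10.9% together. Of these, 248 rose and 313 fell by at least 2-fold, 1.36% and 1.72%. The median change of all genes was -0.02. The 4 values of one line did not overlap the 4 of the other for 17.4% of genes. The split of calls depended on the scaling: 36.5% of calls were rises with the values as deposited and 47.8% after quantile normalization. Without 344SQ replicate 2 the counts were 427 and 740, without 393LN replicate 2 the rises were 482, and without 393LN replicate 3 the falls were 820.

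Of the 12 genes with the largest falls, 5 are in the list of epithelial junction and identity genes (Esrp1, Rab25, Cldn6, Cldn4 and Ap1m2). Esrp1, which directs epithelial splicing, stood at 4.5, 4.72, 4.33 and 4.25 in 344SQ and at 11.69, 11.50, 10.95 and 10.47 in 393LN. Its 344SQ values are close to the floor, and the change was -6.70 (SE 0.24, adjusted p = 1.73e-08). Rab25, a small GTPase of recycling endosomes in epithelia, stood at 6.23, 6.02, 6.65 and 5.35 against 11.85, 12.38, 12.01 and 11.58, a change of -5.89 (SE 0.25, adjusted p = 4.34e-08). Ap1m2, the epithelial subunit of an adaptor complex for basolateral sorting, stood at 6.0, 6.52, 6.14 and 6.52 against 10.79, 10.84, 10.99 and 10.39, a change of -4.46 (SE 0.20, adjusted p = 7.98e-08). Both lines are tight in these genes and lie far from each other. Cldn4, a claudin of tight junctions, stood at 7.36, 7.83, 7.55 and 8.59 against 12.19, 12.65, 12.21 and 12.12, a change of -4.46 (SE 0.32, adjusted p = 6.16e-06).

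The promoters of Rab25, Ap1m2 and Cldn4 are shown as examples that hold the E-box, since the data include Zeb1, a repressor that binds it. Each run is the 250 bases before the RefSeq start in the build GRCm38.p6, on the gene's strand, with every CACCTG or its reverse complement CAGGTG in capitals. Rab25 lies at chr3:88548280-88548529, Ap1m2 at chr9:21312334-21312583 and Cldn4 at chr5:134946935-134947184, all on the minus strand.
Rab25: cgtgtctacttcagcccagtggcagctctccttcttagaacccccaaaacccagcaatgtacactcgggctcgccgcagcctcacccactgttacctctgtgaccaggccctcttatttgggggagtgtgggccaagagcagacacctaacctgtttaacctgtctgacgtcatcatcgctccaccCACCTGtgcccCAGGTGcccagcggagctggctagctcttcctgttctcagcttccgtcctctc
Ap1m2: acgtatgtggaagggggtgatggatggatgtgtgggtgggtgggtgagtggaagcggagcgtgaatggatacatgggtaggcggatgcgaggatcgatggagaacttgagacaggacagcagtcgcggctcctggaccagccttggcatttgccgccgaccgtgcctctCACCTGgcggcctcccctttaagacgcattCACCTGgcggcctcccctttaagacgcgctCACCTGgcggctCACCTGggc
Cldn4: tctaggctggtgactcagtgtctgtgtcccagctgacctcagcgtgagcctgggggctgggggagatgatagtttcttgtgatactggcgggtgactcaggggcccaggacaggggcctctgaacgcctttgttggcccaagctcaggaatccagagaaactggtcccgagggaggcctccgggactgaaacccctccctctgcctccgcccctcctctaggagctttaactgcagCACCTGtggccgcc

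The motif occurs 2 times before Rab25, with first bases at -64 and -53 from the start, 4 times before Ap1m2, at -81, -51, -21 and -9, and 1 time before Cldn4, at -14. Among the 12 named genes with the largest falls, 8 have a promoter in the table, and 6 of these hold the motif on either strand (Ap1m2, Cldn4, Cldn6, Kcnk1, Rab25 and 1 of 2 promoters of Rnf144b). Cwh43 and Myo3b, with changes of -4.96 and -4.76, do not hold it, and their promoters are not shown. Of the 8 matched among the 12 largest rises, 1 holds it (Apob). Over all 32851 promoters of this length the share is 17.2%. That share is of promoters, while the counts before it are of genes, some of which have several promoters. The letters of the motif say nothing of whether a factor is bound there in these tumours.

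**Figure D1:**
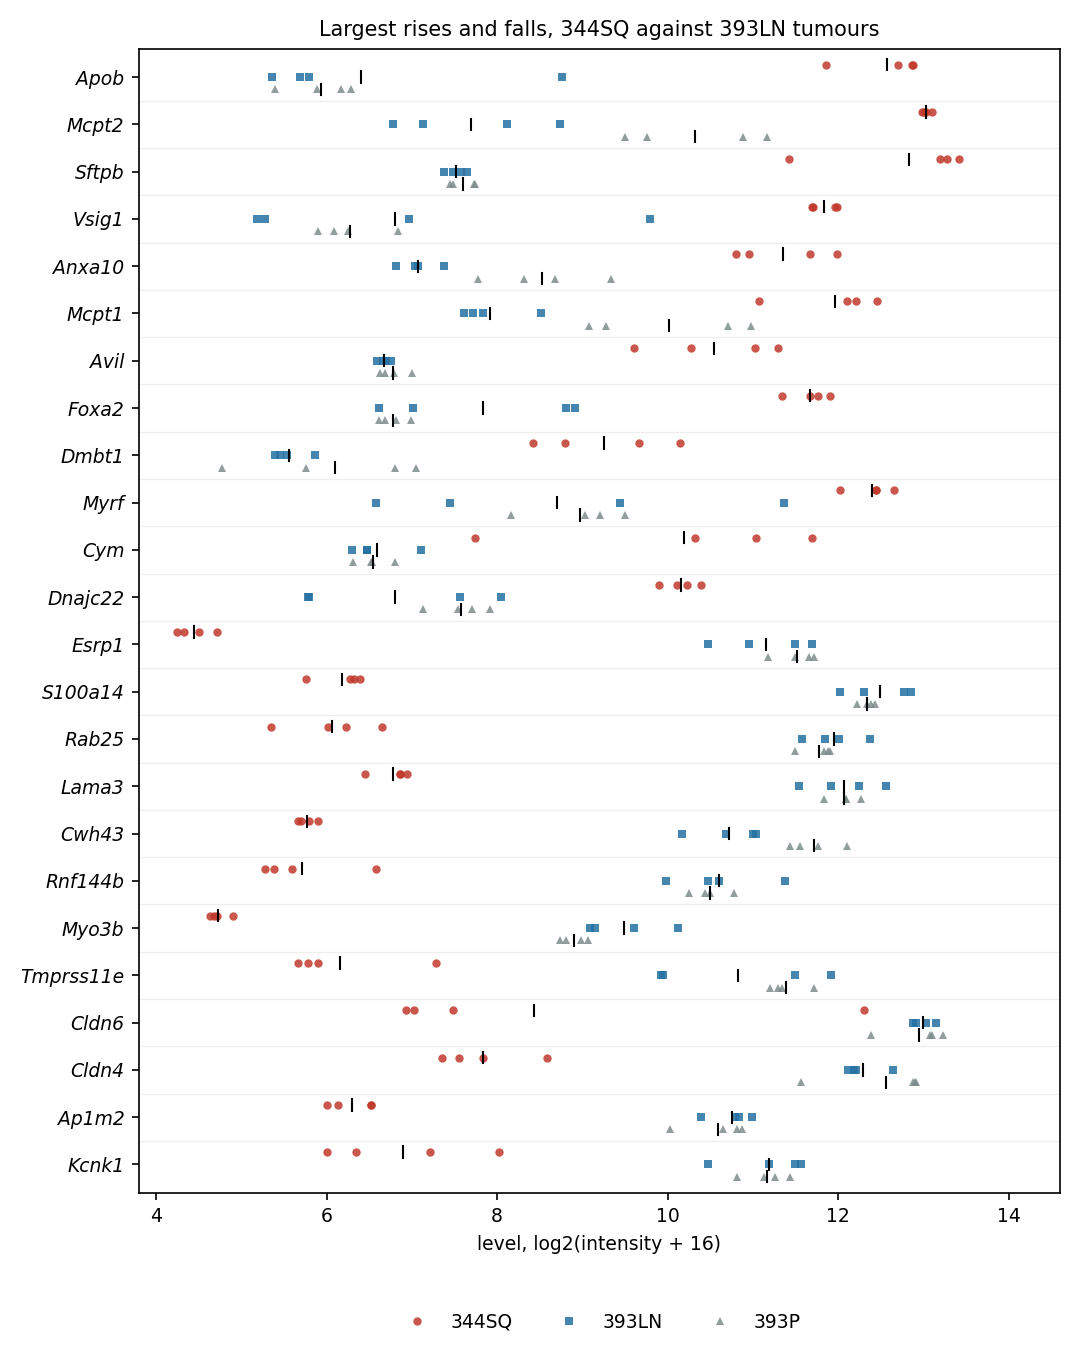
Levels of the 12 genes with the largest rises and the 12 with the largest falls in 344SQ against 393LN, as log2(intensity + 16) on the x axis, 1 point per array and a black bar for the mean of each line, with 393P beside them. The 344SQ and 393LN points do not overlap in any gene, which the choice of genes required. Cldn6 at 12.30 and Cym at 7.74 on 344SQ replicate 4 lie close to 393LN. Myrf at 11.36 on 393LN replicate 3 lies close to 344SQ.

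Of 36 measured genes of epithelial junctions and identity, 18 fell and 1 rose, 52.8% of the list, with a median change of -0.99. With any 1 array left out the falls numbered 15 to 20. The list's mean level was 9.22 to 9.31 on the 4 arrays of 344SQ and 10.57 to 10.99 on those of 393LN. The claudins Cldn3, Cldn4, Cldn6 and Cldn7 all fell. Cldn7 stood at 8.19, 9.30, 8.89 and 9.81 against 12.69, 13.03, 12.81 and 12.37, a change of -3.68 (SE 0.27, adjusted p = 6.87e-06), and Cldn3 had a change of -4.10 (adjusted p = 2.45e-05). Cldn6 was low on 3 arrays of 344SQ, at 6.93, 7.48 and 7.03, and at 12.30 on replicate 4, where 393LN ranged from 12.88 to 13.15. Its change was -4.56 with all arrays (adjusted p = 0.00905) and -5.85 without that replicate. The membrane protease gene St14 and its partners Prss8 and Spint1, a protease and an inhibitor of the same pathway, had changes of -4.00, -1.96 and -1.42 (adjusted p = 7.98e-08, 0.000283 and 0.00225). Tjp1, which encodes the scaffold ZO-1, rose by 0.64 (adjusted p = 0.008), from between 11.48 and 11.70 in 393LN to between 11.95 and 12.39 in 344SQ.

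Cdh1 and 3 keratin genes of simple epithelia did not pass the test. Cdh1, which encodes E-cadherin, stood at 13.70, 13.58, 13.50 and 13.26 in 344SQ and at 13.54, 13.24, 13.34 and 13.18 in 393LN. The lines overlap, and the 95% interval of the change of 0.18 ran from -0.09 to 0.46 (adjusted p = 0.397). Krt8, Krt18, Krt19 and the epithelial factor gene Grhl2 had changes of 0.17, 0.03, -0.06 and 0.29, none past the test. A second probe set of Grhl2, with a mean of 8.85, changed by -3.90 (adjusted p = 8.36e-06), so its probe sets disagree. Epcam, an adhesion molecule, changed by -3.64 (adjusted p = 4.24e-05) on the probe set used, and its other probe set by -0.18 (adjusted p = 0.381), so the size of that fall rests on 1 probe set.

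Of 9 hemidesmosome and laminin-332 genes 3 fell and 1 rose, 44.4% of the list beside 10.9% of all genes, with a median of -0.41. The falls numbered 1 without 344SQ replicate 3 or 393LN replicate 1 or 2. Lama3, a chain of laminin-332, stood at 6.86, 6.94, 6.45 and 6.86 against 12.24, 12.56, 11.92 and 11.54, a change of -5.29 (SE 0.20, adjusted p = 2.61e-08), with a dim second probe set at a mean of 5.05 that changed by -0.32. Itgb4, the hemidesmosomal integrin chain that binds it, changed by -0.91 (adjusted p = 0.0204), which 4 of the 8 arrays could end by being left out (adjusted p up to 0.0602). Itga6, its partner chain, rose by 0.47 (adjusted p = 0.019, and 0.0503 without 344SQ replicate 2). The calcium-binding protein gene S100a14 changed by -6.31 (SE 0.19, adjusted p = 5.74e-09), from 12.02 to 12.86 in 393LN to 5.76 to 6.39 in 344SQ. Among 14 desmosome genes 3 fell, 21.4% of the list. They are the plakophilins Pkp1, Pkp3 and Pkp2, which link desmosomal cadherins to keratin, with changes of -3.25, -1.91 and -0.63. That of Pkp2 (adjusted p = 0.029) depended on 6 single arrays, with an adjusted p of up to 0.0823 when 1 was left out. The other probe set of Pkp3 changed by -0.72 (adjusted p = 0.118). Kcnk1, a potassium channel gene, changed by -4.28 (SE 0.38), and by -2.58 on its other probe set (adjusted p = 0.000272). Rnf144b, a ubiquitin ligase gene, changed by -4.90 on the probe set used, but its others changed by 0.24 and -0.56 (adjusted p = 0.265 and 0.0728).

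Genes of the mesenchymal state moved less. Of 30 measured, 7 rose and 0 fell, 23.3% of the list, with a median of 0.40. The count of rises was 4 without 393LN replicate 3 and 9 without 344SQ replicate 4. Cdh2, which encodes N-cadherin, stood at 10.53, 10.28, 10.57 and 8.63 against 6.83, 6.63, 7.06 and 6.39, a change of 3.27 (SE 0.37, adjusted p = 0.000234), and 3.44 on its other probe set (adjusted p = 0.000606). Zeb1 stood at 10.18, 10.09, 10.20 and 10.33 against 9.04, 8.99, 9.29 and 9.57, a change of 0.98 (SE 0.14, adjusted p = 0.00116). The 4 arrays of 344SQ lie within a narrow band above all of 393LN, and the other 3 probe sets of Zeb1, which are dimmer, changed by 0.37, 0.16 and 1.32 (adjusted p = 0.441, 0.426 and 0.0503). Vim, the intermediate filament of mesenchymal cells, was already high in 393LN, at 12.99, 13.35, 13.49 and 14.01 against 14.21, 14.04, 14.22 and 14.29. Its change of 0.73 did not pass (adjusted p = 0.0966), although those of its other probe sets, 0.61 and 0.82, did (adjusted p = 0.0264 and 0.0287). Snai2 changed by 0.79 (adjusted p = 0.019, and 0.0535 without 393LN replicate 3) and Zeb2 by 0.30 (adjusted p = 0.194). The collagens Col6a1, Col6a2 and Col5a3 rose by 1.22, 1.26 and 0.70, 3 of 22 collagen genes, and none fell. That is 13.6% of the list, near the 10.9% of all genes called. Of 24 fibroblast and pericyte genes none rose, and Mcam fell, 4.17% of the list (-0.99, adjusted p = 0.0163, and 0.0553 without 344SQ replicate 2). In bulk tumours, fewer cells of a kind and less RNA per cell cannot be told apart, and the part of host stroma in these values was not tested.

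Of the 12 genes with the largest rises, 6 are in the list of stomach, gut and liver lineage genes (Apob, Vsig1, Anxa10, Avil, Foxa2 and Cym), 2 are mast cell proteases and 1 is a surfactant gene. Apob, the structural protein of lipoproteins made in liver and intestine, stood at 12.88, 12.70, 12.87 and 11.86 in 344SQ and at 5.36, 5.79, 8.76 and 5.69 in 393LN, a change of 6.18 (SE 0.61, adjusted p = 7.37e-05), or 72.4-fold. Without 393LN replicate 3, which stands above the rest of its line, it was 6.97. The other probe set of Apob changed by 0.71 (adjusted p = 0.0715). Anxa10, an annexin of stomach mucosa, stood at 10.80, 11.67, 11.99 and 10.96 against 7.04, 7.07, 7.38 and 6.81, a change of 4.28 (SE 0.32, adjusted p = 8.67e-06), and 3.44 on its other probe set. Vsig1, a junction protein of stomach epithelium, stood at 11.99, 11.96, 11.69 and 11.70 against 5.28, 5.19, 9.79 and 6.97, a change of 5.03 (SE 0.78, adjusted p = 0.00176), and 6.02 without 393LN replicate 3. Avil, an actin-bundling protein gene, changed by 3.87 (SE 0.28, adjusted p = 6.87e-06). Cym, which encodes the stomach protease chymosin, stood at 11.69, 11.04, 10.32 and 7.74 against 6.48, 6.30, 7.11 and 6.48, a change of 3.61 (adjusted p = 0.00397), and 4.42 without 344SQ replicate 4.

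Transcription factors of endoderm rose with them. Foxa2 stood at 11.90, 11.77, 11.67 and 11.34 against 7.01, 6.61, 8.81 and 8.91, a change of 3.83 (SE 0.44, adjusted p = 0.00027). Hnf4a stood at 12.31, 12.33, 12.55 and 12.38 against 8.71, 9.20, 11.48 and 10.28, a change of 2.48 (SE 0.45, adjusted p = 0.00499), and 2 of its other 3 probe sets rose, by 1.59 and 2.38. Pdx1, the factor of pancreas and duodenum, rose by 2.36 (adjusted p = 0.0075), Gata6 by 1.40 (adjusted p = 0.00653) and Gata4 by 1.01 (adjusted p = 0.00579). No other probe set of these genes passed. Those of Gata6 changed by 1.16 and 0.10 (adjusted p = 0.115 and 0.896) and that of Pdx1 by 0.47 (adjusted p = 0.316). That of Gata4 was at the floor, with a mean of 4.09. In all, 13 of 44 measured genes of stomach, gut and liver lineage rose and 2 fell, 34.1% of the list, with a median of 0.22. With any 1 array left out the rises numbered 11 to 14 and the falls 0 to 2. The 2 falls are Foxa1, with a change of -0.45 (adjusted p = 0.0366), and the foregut factor Sox2, with one of -3.80 (adjusted p = 0.0438). Both depended on single arrays, 6 for Foxa1 and 5 for Sox2, which overlapped between the lines at 8.23 and 8.17 and had a change of -2.99 without 393LN replicate 1.

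Other genes of these tissues did not pass. The stomach mucin gene Muc5ac stood between 4.09 and 4.44 on the 8 arrays, the gastrokine gene Gkn1 between 6.24 and 6.74, and Cdx2, the intestinal master factor, between 4.29 and 5.74, with changes of -0.12, 0.16 and 0.07. Of 14 hepatocyte genes 0 passed in limma's test, beside 10.9% of all genes, with 5 at an unadjusted p under 0.05. Alb, Ttr and Afp, the main plasma proteins of adult and fetal liver, had changes of -0.12, -0.30 and -0.45. Other probe sets of Ttr changed by 0.97, 1.19 and 0.13, and none passed. Those of Afp changed by -0.63, -0.34, 0.22 and 0.81, of which only the last passed (mean 6.27, adjusted p = 0.0449). Among 23 lung lineage genes, the surfactant gene Sftpb rose and Muc1 fell, 8.7% of the list beside 10.9% of all genes. Sftpb stood at 13.42, 13.20, 13.28 and 11.43 against 7.58, 7.48, 7.38 and 7.65, a change of 5.31 (SE 0.35, adjusted p = 2.71e-06), while Sftpc, the defining gene of alveolar type II cells, stood at 6.96 to 7.36 against 6.28 to 7.04 (adjusted p = 0.153).

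**Figure D2:**
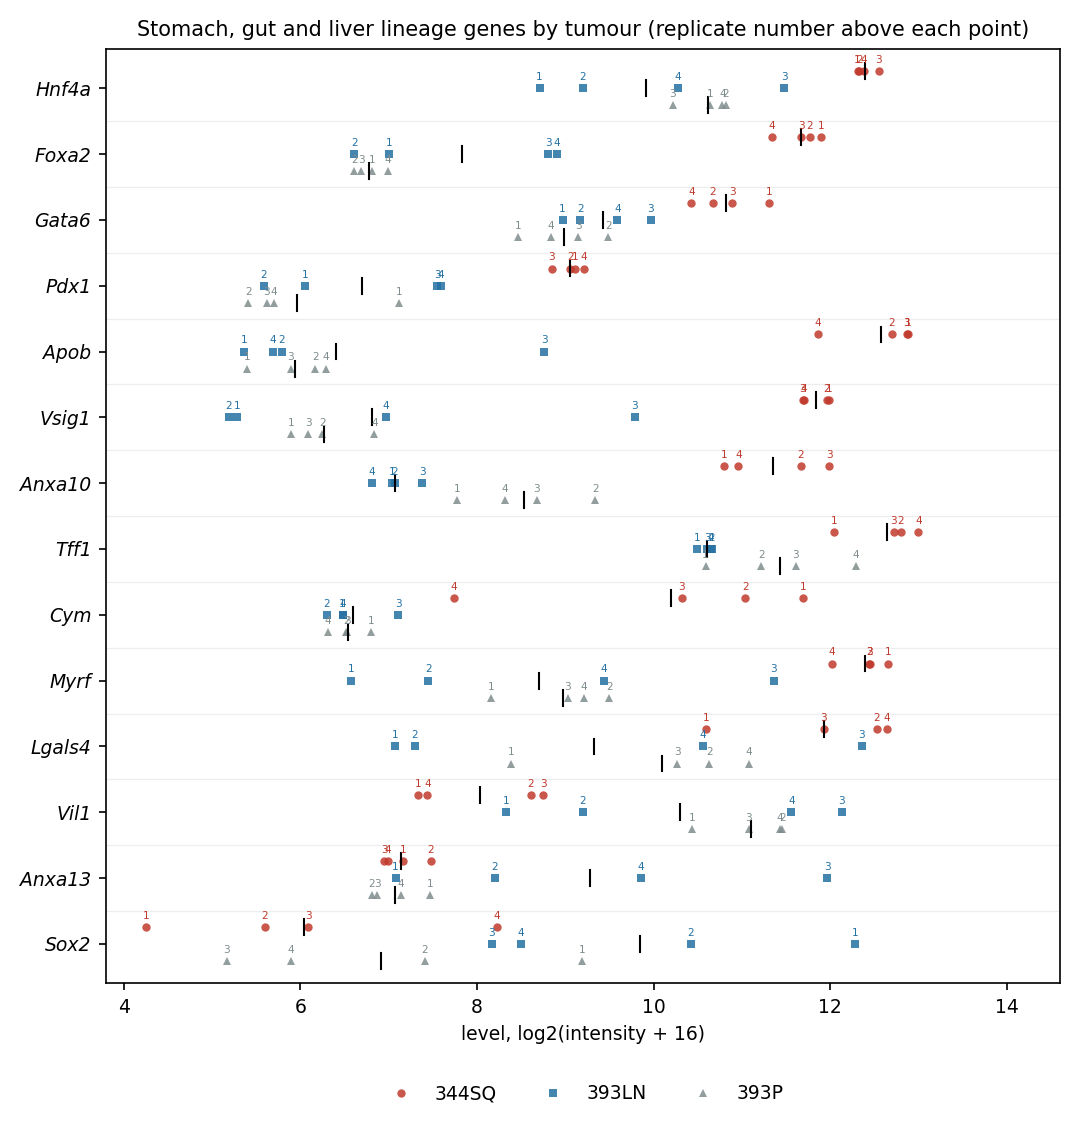
Levels of 14 genes as log2(intensity + 16) on the x axis, 1 point per array with its replicate number above it, and a black bar for the mean of each line. All but Myrf and Anxa13 are in the list of stomach, gut and liver lineage genes. Replicates 3 and 4 of 393LN lie above replicates 1 and 2 in Hnf4a, Foxa2, Gata6, Pdx1, Vsig1, Myrf, Lgals4, Vil1 and Anxa13 and below them in Sox2.

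Within 393LN some of these genes split the tumours, while the values of Anxa10 and Avil lie close together and Apob and Cym are highest on replicate 3 alone. Avil stood at 6.66, 6.76, 6.59 and 6.70 there. Myrf, a membrane-bound transcription factor gene, stood at 6.58, 7.45, 11.36 and 9.44 on its replicates 1 to 4 and at 12.02 to 12.66 in 344SQ, so that its change of 3.69 was 4.57 without replicate 3 and 2.98 without replicate 1 (adjusted p = 0.0116 with all arrays). The galectin gene Lgals4 stood at 7.07, 7.30, 12.36 and 10.56 and the gut annexin gene Anxa13 at 7.08, 8.20, 11.97 and 9.86. These genes and Vil1 were chosen after their values were seen, and neither of these changes passed (2.60, adjusted p = 0.142, and -2.13, adjusted p = 0.0986). Vil1, the villin of the brush border, stood at 8.33, 9.20, 12.13 and 11.56, and its 344SQ values of 7.33 to 8.75 overlap the low end of these (-2.27, adjusted p = 0.0643). Sox2 ran the other way, at 12.28, 10.42, 8.17 and 8.50. In each of these 5 genes replicates 3 and 4 are on one side and replicates 1 and 2 on the other. Replicates 3 and 4 carry consecutive sample numbers in the labels, which do not say what the numbers stand for. The mean of the whole list was 7.58, 7.65, 8.27 and 7.92 on the 4 arrays of 393LN and 8.62 to 8.74 on those of 344SQ.

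The comparison with 344SQ gives different results for the lymph node line and the primary line of mouse 393 in a limited set of genes. Since both comparisons use the same 344SQ arrays, their changes differ by exactly the difference between 393LN and 393P, which is therefore the test of where they differ. By that test 319 genes were higher and 127 lower in 393LN than in 393P, 1.75% and 0.698% of genes and 2.45% together, and the groups did not overlap for 10.3%. With 1 array left out the count of higher genes was 105 to 247, lowest without 393LN replicate 3, and that of lower genes 48 (without 393P replicate 3) to 166 (without 393LN replicate 1). The genes named next passed in both comparisons without overlap, as 168 genes did, and are those with the largest differences between the 393 lines. The comparisons share the 393LN arrays, so a gene that is high or low in 393LN alone enters both. Such a gene also follows the split in sample numbers, which are lower in 393LN than in the other lines. The part of that split in these differences was not tested.

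Slc14a1, a urea transporter gene, led the genes higher in 393LN. It stood at 9.61, 10.64, 11.03 and 10.13 in 393LN, at 5.55, 6.39, 6.93 and 6.71 in 344SQ and at 5.97, 5.78, 6.09 and 7.85 in 393P. Against 393LN the change was -3.96 (SE 0.46, adjusted p = 0.000294), against 393P it was -0.03, and the 393 lines differed by 3.93 (SE 0.46, adjusted p = 0.00237). Its other probe set gave -2.67 and 2.94 for the first and last of these. Bst1, a surface enzyme gene that makes cyclic ADP-ribose, stood at 10.32, 11.50, 10.80 and 9.85 in 393LN against 7.32 to 8.37 in 344SQ and 8.52 to 8.64 in 393P. The 393 lines differed by 2.04 (SE 0.31, adjusted p = 0.00871), and by 2.24 on the other probe set (adjusted p = 0.0112). The zinc finger gene Bnc1, a factor of stratified epithelia, and the fatty acid activating enzyme gene Acsl6 were higher in 393LN by 1.80 and 1.74. Between the 393 lines these calls were lost on leaving out 3 single arrays for Bnc1 and 7 for Acsl6 (adjusted p up to 0.0592 and 0.115), although the other probe set of Acsl6 passed (1.96, adjusted p = 0.00306).

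Trpa1, an irritant-gated cation channel gene, changed in opposite directions. It stood at 7.66, 8.43, 8.41 and 9.43 in 344SQ, between 9.52 and 10.56 in 393LN and between 6.64 and 7.81 in 393P. In 344SQ it was lower than in 393LN by 1.65 (SE 0.36, adjusted p = 0.0126) and higher than in 393P by 1.43 (adjusted p = 0.0241), and the 393 lines differed by 3.07 (adjusted p = 0.00233). Irx3, an Iroquois homeobox gene, had 393LN in the middle instead: 11.76 to 12.03 in 344SQ, 10.11, 8.84, 10.43 and 11.59 in 393LN and 7.55 to 8.42 in 393P. The changes were 1.65 (adjusted p = 0.0292) between 344SQ and 393LN and 2.28 (adjusted p = 0.0193) between the 393 lines, and these were lost on leaving out 6 and 2 single arrays (adjusted p up to 0.0646 and 0.0631). Irx5, its neighbour on chromosome 8 and chosen for that after its values were seen, stood at 10.11 to 10.66, at 8.70, 7.91, 9.0 and 10.07, and at 7.30 to 7.56, with changes of 1.48 (adjusted p = 0.0159) and 1.44 (adjusted p = 0.046). The last of these was lost on leaving out 6 single arrays (adjusted p up to 0.12). Irx6, the third Iroquois gene there, had changes of -0.32 and 0.04.

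A stretch of chromosome 15 held 3 genes that were lower in 344SQ than in 393LN. Lratd2, a gene of the lecithin retinol acyltransferase domain family, stood at 12.35, 13.34, 12.34 and 13.17 in 393LN, at 9.07 to 9.51 in 344SQ and at 11.14 to 11.34 in 393P, with a change of -3.50 (SE 0.21, adjusted p = 1.61e-06) and a difference between the 393 lines of 1.59 (adjusted p = 0.00453). Pvt1, a non-coding gene next to Myc, stood at 9.68, 10.77, 9.21 and 9.55 against 7.91 to 8.30 in 344SQ and 7.95 to 8.35 in 393P, with a change of -1.76 (adjusted p = 0.00151). Its other 4 probe sets, with means of 4.99 to 6.53, changed by -0.32 to 0.17, and none passed. Myc itself, the growth-promoting transcription factor, stood at 12.23, 13.02, 13.01 and 12.63 in 393LN and at 11.28, 11.49, 11.52 and 11.56 in 344SQ. Its change was -1.27 (SE 0.27, adjusted p = 0.0113), and its difference of 0.88 between the 393 lines did not pass (adjusted p = 0.115), with 393P at 10.93, 12.29, 12.09 and 12.08. Between Lratd2 and Myc lies 1 other measured gene, 4930402D18Rik, with a mean of 4.19 near the floor, and the measured genes on either side of the run, 4933412E24Rik and Macroh2a3, had changes of -0.14 and -0.08. The neighbours were looked at after the values of Lratd2 and Pvt1 were seen.

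Mycn, the paralogue of Myc, was low in 393LN alone. It stood at 6.42, 6.80, 6.62 and 6.89 there, at 9.02, 8.84, 9.15 and 7.88 in 344SQ and at 8.65, 9.11, 8.61 and 8.03 in 393P. The change was 2.04 (SE 0.28, adjusted p = 0.000756) and the 393 lines differed by -1.92 (adjusted p = 0.00691), but its other probe sets changed by 0.50 and 0.17 (adjusted p = 0.225 and 0.528). Cdh13, a cadherin without a cytoplasmic tail, was lower in 393LN than in either other line, at 9.91, 9.52, 9.45 and 9.44 against 10.76 to 11.99 in 344SQ and 11.44 to 11.64 in 393P, with differences of 1.63 (adjusted p = 0.00073) and -1.94 (adjusted p = 0.00233). A second bright probe set gave 1.44 and -1.75. Wtip, a LIM protein of cell junctions, and the water channel gene Aqp1 had the same order, with changes of 1.73 and 1.96 against 393LN and differences of -1.88 and -1.70 between the 393 lines. The difference in Aqp1 was lost on leaving out 3 single arrays (adjusted p up to 0.0588).

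**Figure D3:**
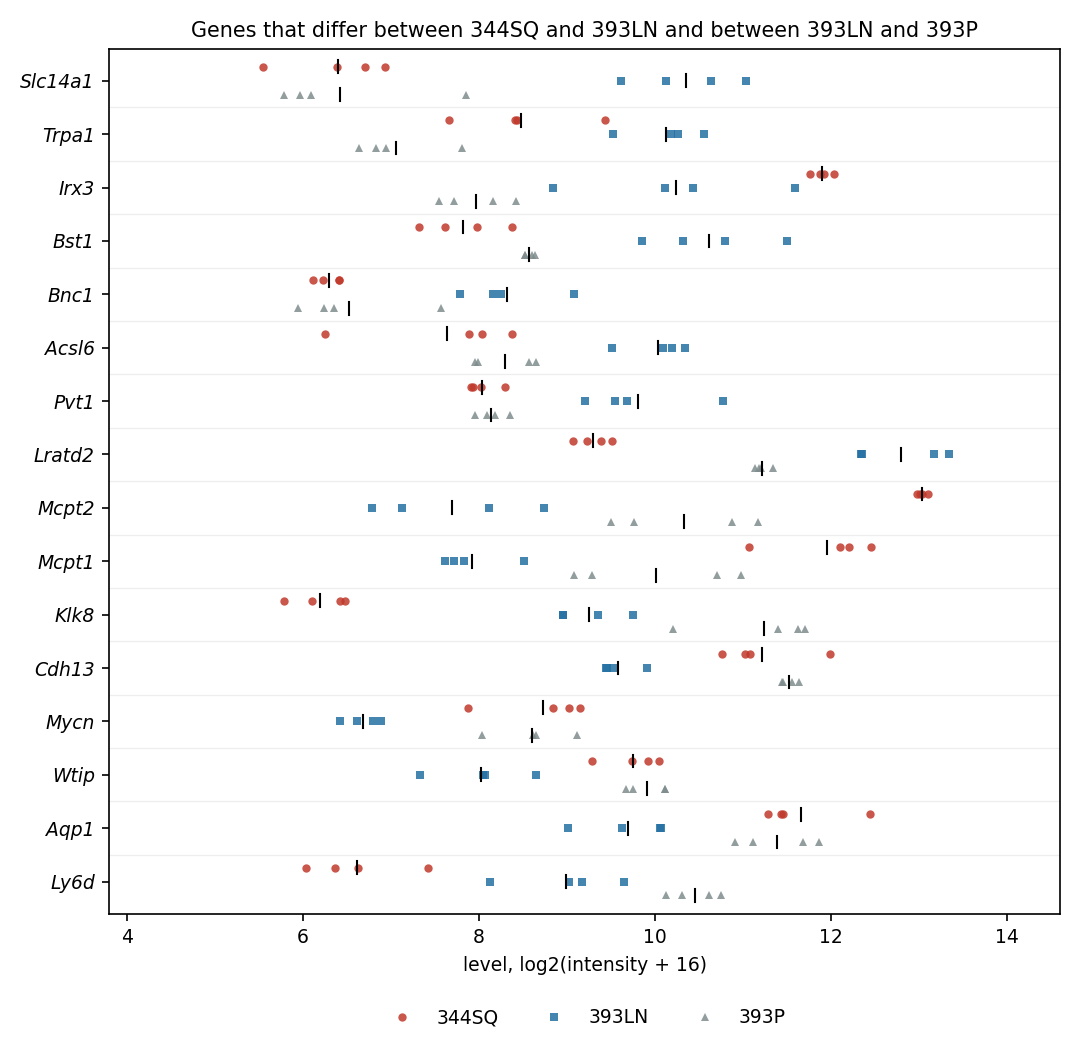
Levels of the 8 genes most above and the 8 most below 393P in 393LN, among genes that passed in both comparisons without overlap, as log2(intensity + 16) on the x axis, 1 point per array and a black bar for the mean of each line. 393LN stands apart from both other lines in Slc14a1, Bst1, Pvt1, Cdh13, Mycn and Wtip, and between them in Irx3, Klk8 and Ly6d.

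Genes of mast cell proteases, which host cells could carry, also rose. Mcpt2 stood at 12.98, 13.10, 13.03 and 13.01 in 344SQ, at 6.78, 7.13, 8.12 and 8.74 in 393LN and at 9.76, 11.17, 10.88 and 9.50 in 393P. Mcpt1, its neighbour on chromosome 14, stood at 12.21, 12.10, 12.46 and 11.07 against 7.61, 7.72, 7.83 and 8.51, with 9.08 to 10.98 in 393P. 344SQ was the highest line in both genes and 393LN the lowest. The changes were 5.34 (SE 0.44, adjusted p = 1.76e-05) and 4.04 (SE 0.44, adjusted p = 0.000161). The 393 lines differed too, by -2.64 (adjusted p = 0.0127) for Mcpt2 and -2.09 (adjusted p = 0.03) for Mcpt1, the second of which was lost on leaving out 5 single arrays (adjusted p up to 0.086). Mcpt8, a basophil protease gene of the same cluster, stood at 12.53 to 13.73 against 9.96 to 11.07, a change of 2.64 (SE 0.33, adjusted p = 0.000459). Tpsab1, the mast cell tryptase gene, stood at 12.13, 12.10, 11.15 and 9.28 against 7.65, 7.87, 8.75 and 8.89, a change of 2.87 (adjusted p = 0.00942), or 3.5 without 344SQ replicate 4. The granzyme gene Gzme, further along the cluster and chosen after its values were seen, rose by 1.63 (adjusted p = 0.0237, and up to 0.0732 on leaving out 1 of 6 arrays). The rise did not run along the whole cluster. Beyond Gzme, Gzmd, Gzmg, Gzmf, Gzmc and Gzmb changed by -0.72, -0.91, -0.21, -0.38 and -1.01, and Gzmn by 0.27. Before it, Cma1 and Mcpt4 changed by 1.04 and 0.77, and Mcpt-ps1 and Ctsg by -0.07 and -0.13. None of these passed the test. These protease genes are close copies of one another, and the probes may share signal between them.

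The mast cell genes Kit, Ms4a2 and Cpa3 did not pass the test. Mcpt1, Mcpt2, Mcpt8 and Tpsab1 of the same list did, as did Rab27b, with a change of 1.07 (adjusted p = 0.000393). The receptor gene Kit stood at 8.13, 7.89, 7.81 and 7.23 against 8.29, 7.75, 7.89 and 7.75, a change of -0.15 (adjusted p = 0.675). The IgE receptor gene Ms4a2 stood at 5.29 to 5.82 against 5.05 to 5.50 (adjusted p = 0.398), and the carboxypeptidase gene Cpa3 at 8.70, 9.09, 8.68 and 6.58 against 6.83, 6.99, 6.98 and 7.11, a change of 1.28 (adjusted p = 0.0853). Cpa3 was high on 3 arrays of 344SQ and low on replicate 4, where Mcpt2 stood at 13.01. In the whole mast cell list 5 of 20 measured genes rose and 0 fell, 25% of the list, with a median of 0.25, and without 344SQ replicate 4 the rises numbered 9. The mean of the list was 8.57 to 9.13 on the arrays of 344SQ and 7.89 to 8.12 on those of 393LN. No member of the list was within 0.5 of the floor on all arrays. Mcpt8 is counted in this list. Of 9 other eosinophil and basophil genes 0 passed in limma's test, beside 10.9% of all genes, with 0 at an unadjusted p under 0.05. The part of host mast cells in the protease values was not tested.

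Among 31 skin and squamous genes 7 fell and 1 rose, 25.8% of the list, with a median of -0.64. Serpinb5, the epithelial serpin maspin, stood at 7.49, 7.14, 6.89 and 6.86 against 11.59, 11.53, 11.49 and 10.49, a change of -4.17 (SE 0.29, adjusted p = 3.86e-06). Klk8, a kallikrein protease gene of the epidermis, formed a series over the lines, at 5.78 to 6.48 in 344SQ, 8.96 to 9.75 in 393LN and 10.21 to 11.70 in 393P, with a change of -3.06 (adjusted p = 9.67e-05) and a difference of -1.98 between the 393 lines (adjusted p = 0.0104). Ly6d had the same order, with -2.38 and -1.46, the second of which was lost on leaving out 7 single arrays (adjusted p up to 0.107). Sprr1a, a cornified envelope gene, was lowest in 393LN, at 12.02, 11.76, 11.31 and 12.03 against 12.61 to 12.96 in 344SQ and 12.83 to 13.37 in 393P. It rose by 1.07 against 393LN (adjusted p = 0.0021) and differed by -1.30 between the 393 lines (adjusted p = 0.00422), while its change against 393P was -0.23.

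**Figure D4:**
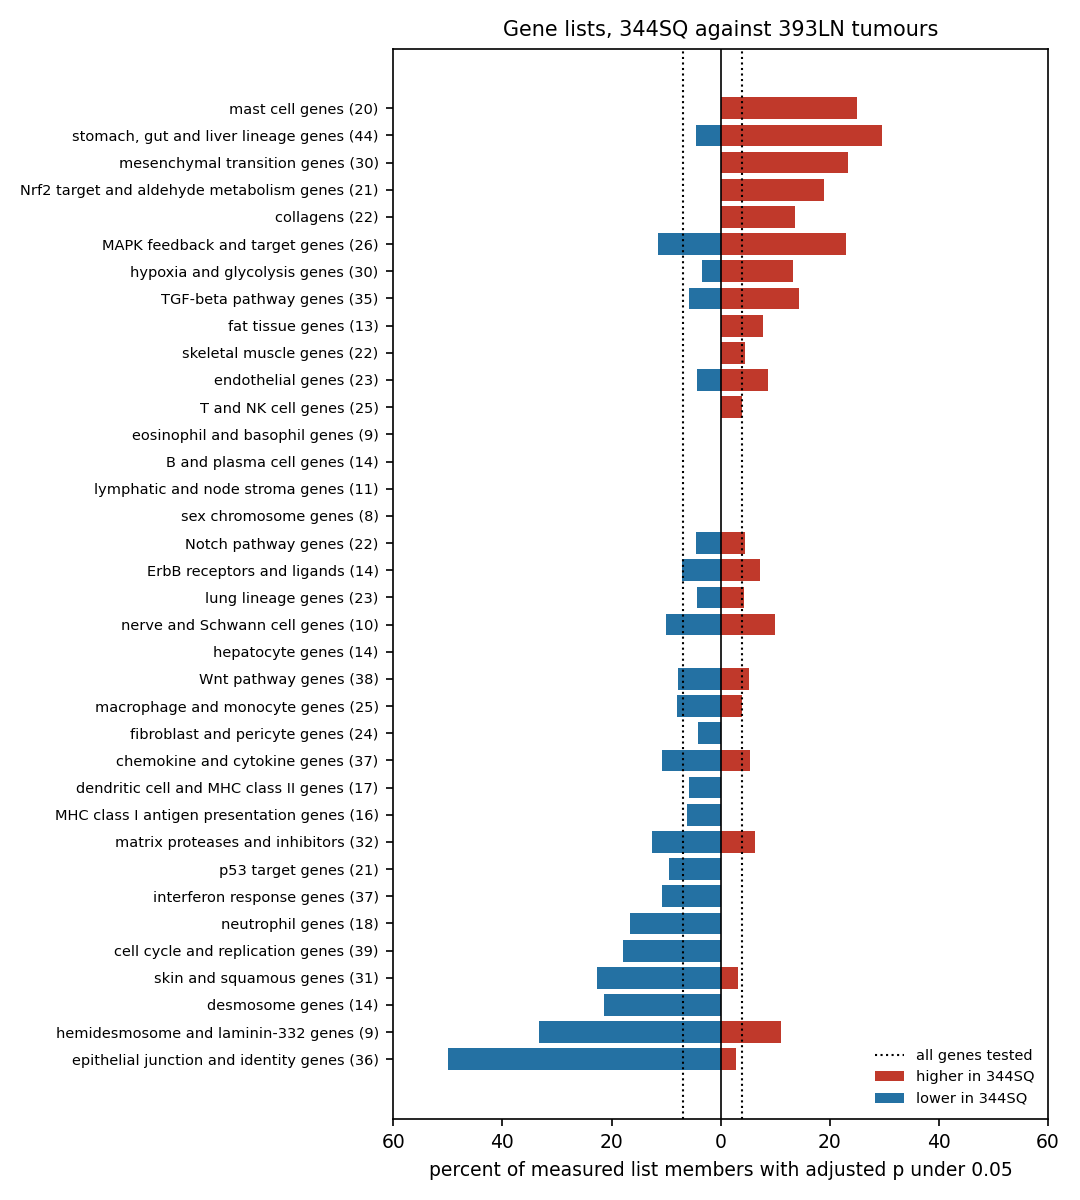
Share of the measured members of each gene list that rose (right, red) or fell (left, blue) in 344SQ against 393LN, in percent on the x axis, with the number measured in brackets and dotted lines at 3.99% and 6.92%, the shares over all genes. The bar of falls is longest in epithelial junction and identity genes and that of rises in stomach, gut and liver lineage genes.

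Signalling lists held calls in both directions. Of 26 genes of MAPK feedback and targets 6 rose and 3 fell, 34.6% of the list, but the rises numbered only 2 without 344SQ replicate 2 or 4 or without 393LN replicate 2 or 3. Egr3, an early growth response gene, rose by 1.24 (SE 0.19, adjusted p = 0.00144), from 7.79 to 8.47 in 393LN to 8.85 to 9.66 in 344SQ. Its other probe set, dimmer with a mean of 6.89, changed by -0.34 (adjusted p = 0.433). Of 35 TGF-beta pathway genes 5 rose and 2 fell, 20% of the list beside 10.9% of all genes. The rises numbered 3 without 344SQ replicate 1, 2 or 3, and the falls 0 without 344SQ replicate 2 or 393LN replicate 1 or 2. The ligand gene Bmp4 stood at 11.26, 11.05, 10.40 and 9.32 against 7.48, 7.55, 8.15 and 8.80, a change of 2.51 (SE 0.42, adjusted p = 0.00279), while the ligand gene Bmp7 had one of -2.37 (adjusted p = 0.0237) that was -1.63 without 344SQ replicate 1 and did not pass without any of 4 other arrays (adjusted p up to 0.0625). The inhibitor Smad7 rose by 0.61 (adjusted p = 0.0109). The receptor gene Erbb3 fell by 2.10 on the log2 scale (SE 0.17, adjusted p = 1.76e-05), and the Wnt ligand gene Wnt7b by 1.10 (adjusted p = 0.00279). Car9, a carbonic anhydrase induced by low oxygen, stood at 10.90, 10.84, 10.30 and 11.13 against 8.47, 7.88, 8.57 and 7.52, a change of 2.68 (SE 0.25, adjusted p = 5.22e-05), in a list of 30 of which 4 rose and 1 fell. The calls were 16.7% of that list beside 10.9% of all genes, and its rises numbered 2 without 393LN replicate 3.

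Secreted signals and proteases went both ways. The alarmin gene Il33 stood at 11.37 to 12.27 against 9.71 to 10.55, with no overlap and a change of 1.87 (SE 0.24, adjusted p = 0.000517), and the cytokine gene Il11 rose by 1.42 (adjusted p = 0.00165). Il23a and the chemokine gene Cxcl16 had changes of -1.04 and -1.43 (adjusted p = 0.000482 and 0.00328). Of the urokinase system, the protease gene Plau fell by 2.01 on the log2 scale (adjusted p = 0.000703) and the receptor gene Plaur rose by 0.85 (adjusted p = 0.0123). Tmprss11e and Tmprss4, membrane serine protease genes of epithelia, had changes of -4.67 and -1.74. Of 39 cell cycle genes 7 fell and 0 rose, 17.9% of the list beside 10.9% of all genes, with a median of -0.26. Among the falls were the replication licensing genes Mcm2, Mcm3 and Mcm4 (changes of -0.46, -0.70 and -0.68). The call of Mcm2 was lost on leaving out 5 single arrays and that of Mcm3 without 344SQ replicate 2. The falls numbered 2 without 344SQ replicate 1 or 2 or 393LN replicate 1.

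Of 25 macrophage and monocyte genes 1 rose and 2 fell, 12% of the list beside 10.9% of all genes. The rise was lost on leaving out any array but 393LN replicate 1, and the falls numbered 1 to 4, with 4 without 344SQ replicate 1 or 393LN replicate 3. Of 18 neutrophil genes 3 fell, 16.7% of the list. Of those, Padi4 stood at 5.40, 6.32, 6.35 and 10.04 against 9.82 to 10.98, a change of -3.36 (adjusted p = 0.0144) that was -4.36 without 344SQ replicate 4. Of 37 interferon response genes 4 fell and 0 rose, 10.8% of the list, near the 10.9% of all genes called, with a median of -0.69. The falls numbered 2 without 393LN replicate 2 and 8 without 344SQ replicate 1. That list's mean was 10.30, 9.39, 8.96 and 7.60 on the 4 arrays of 344SQ and 9.28 to 10.22 on those of 393LN, so replicates 3 and 4 are below and replicate 1 above all of 393LN. Usp18, a negative regulator of interferon signalling, changed by -2.46 (adjusted p = 0.0157), and by -1.82 without replicate 4. Of 16 genes of MHC class I antigen presentation 1 fell, 6.25% of the list, with a median of -0.72. The falls numbered 0 to 8 with 1 array left out, most without 344SQ replicate 1. Of T and NK cell, B and plasma cell, and lymphatic and node stroma genes, 1 of 25, 0 of 14 and 0 of 11 passed in limma's test, with 2, 0 and 1 at an unadjusted p under 0.05. These calls are 4%, 0% and 0% of the lists beside 10.9% of all genes, and lists this short can hold few calls at that share.

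Calls were spread unevenly over the chromosomes. Of 18021 genes with a chromosome here, 15.3% lie on chromosomes 8, 12, 16 and X, which were picked after the values were seen, and these held 26.9% of the genes that were lower in 344SQ than in 393LN and 58.8% of those higher in 393LN than in 393P. On chromosome 16, 14.5% of genes were lower in 344SQ than in 393LN, and on chromosome 8 it was 12.9%, against 6.92% of all genes. On the X chromosome 9.40% of genes were higher in 393LN than in 393P, and on chromosome 8 it was 7.62%, against 1.75% of all genes. The shares for chromosomes 18 and 14 were high in the other direction, with 11.8% and 9.67% of genes higher in 344SQ than in 393LN against 3.99%. With quantile normalization the shares lower in 344SQ were 11.5% on chromosome 16 and 10.6% on chromosome 8, and those higher in 344SQ were 14.4% and 10.5% on chromosomes 18 and 14.

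The shift was seen on nearly every array. As a level for each array and chromosome, the median difference from the 393P mean was taken over the brighter 50% of genes, after subtraction of the array's own median. For the X chromosome it was 0.28, 0.30, 0.29 and 0.31 in 393LN, 0.12 to 0.19 in 344SQ and -0.11 to 0.10 in 393P. For chromosome 8 it was 0.23, 0.16, 0.18 and 0.13 in 393LN, and 0.03, 0.05, 0.06 and 0.18 in 344SQ, so that here replicate 4 of 344SQ overlaps 393LN. For chromosome 16 it was 0.19, 0.26, 0.20 and 0.02 in 393LN and -0.04 to 0.01 in 344SQ, with replicate 4 of 393LN near the other lines. For chromosome 12 it was 0.13, 0.22, 0.37 and 0.20 against 0.04 to 0.10. For chromosome 18 it was 0.14 to 0.24 in 344SQ, -0.11 to -0.07 in 393LN and -0.01 to 0.02 in 393P, so both lines stood off 393P. For chromosome 14 it was -0.01 to 0.05 in 344SQ, within the -0.06 to 0.08 of 393P, and -0.26 to -0.09 in 393LN. In exact two-sided permutation tests of 4 against 4 arrays the smallest p possible is 0.0286, and over 20 chromosomes no adjusted p was under 0.05. The lowest were 0.0816 for 344SQ against 393LN and 0.0519 for 393LN against 393P. They are what the smallest p gives when 7 and 11 of the 20 chromosomes reach it, as those without overlap of the arrays did. With 4 arrays per line a chromosome could not pass on its own values, so these tests cannot decide for single chromosomes.

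Genes that mark sex differed between arrays, and their part in the X chromosome values was not tested. Xist, the RNA of the inactive X chromosome, stood at 6.78, 7.04, 6.89 and 6.88 in 393LN and at 11.94, 11.03, 6.82 and 10.69 in 344SQ, and the Y-linked gene Eif2s3y stood at 8.93 to 10.15 on all arrays of 393LN. Of 8 measured sex chromosome genes, 0 passed between 344SQ and 393LN, beside 10.9% of all genes. Between the 393 lines 2 were higher in 393LN, 25% of the list beside 2.45% of all genes, and 2 were higher in 344SQ than in 393P. The list's mean was 9.68 to 10.45 in 344SQ, 9.60 to 9.91 in 393LN and 8.54 to 9.52 in 393P. In 393P, where the X chromosome level was lowest, Xist stood at 7.04, 6.83, 7.35 and 10.92. 344SQ replicate 3, with Xist at 6.82, had an X chromosome level of 0.13, within the range of its line.

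**Figure D5:**
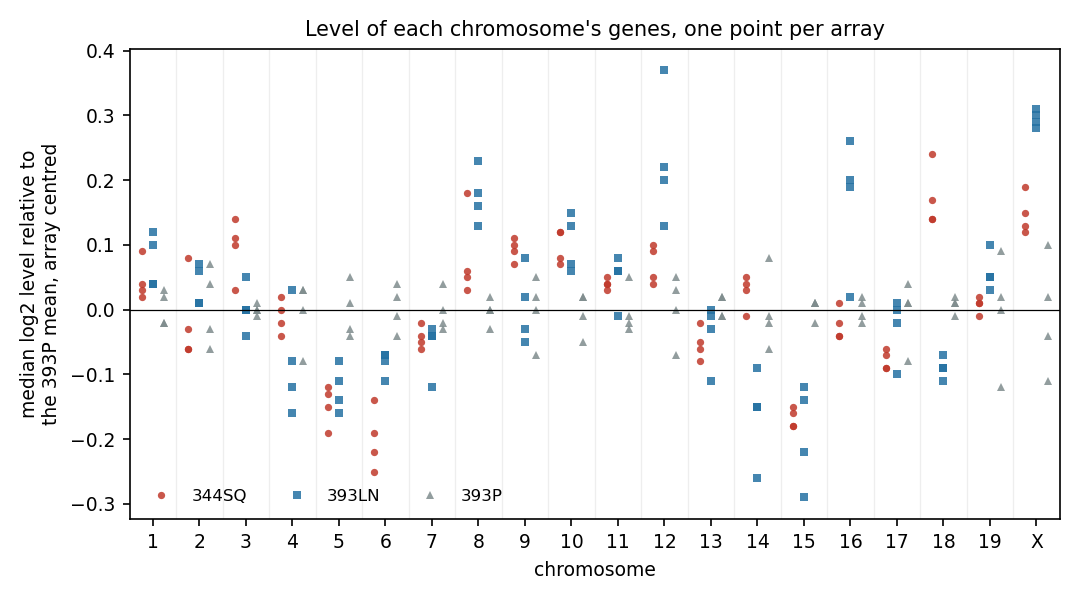
Level of each chromosome's genes on each array, as the median log2 difference from the 393P mean over the brighter 50% of genes, centred by array. Zero is the 393P mean by construction. The 4 points of 393LN lie above the other lines on the X chromosome, at 0.28 to 0.31, and those of 344SQ above them on chromosome 18, at 0.14 to 0.24.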

How the data were processed

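The values are probe set intensities on a linear scale as deposited by the authors. The method of their summary and normalization was not given in the sources used here. They were used as log2(intensity + 16) with no further normalization. Of 45101 probe sets, 34945 have 1 gene symbol in the platform annotation, 932 several, 9160 none and 64 are controls. For each of 18193 genes the brightest probe set was kept, by its mean over all arrays. The fit was made with limma 3.58.1 in R 4.3.3 (lmFit and eBayes, a mean per line over all 12 arrays, 9 residual degrees of freedom), two-sided, and p-values were adjusted over the 18193 genes by Benjamini and Hochberg's method; a second fit over the 34945 probe sets gave the values of other probe sets. Array numbers, not depth, limit the precision. The fit was tested on simulated data.

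Named genes were the 12 largest rises and 12 largest falls with an adjusted p under 0.05, no overlap and a higher line mean above the 40th percentile of line means; the 8 highest and 8 lowest differences between 393LN and 393P among genes that met these conditions in both comparisons; up to 4 called members of each of 36 gene lists, and up to 2 in the minority direction; and 13 genes by name. Unnamed transcripts were skipped. Others were chosen after their values were seen. The comparison, the members and the lists were chosen with earlier results of these data known. Chromosomes and promoters are from RefSeq tables of GRCm38.p6; the files name no build. Alternatives were pseudocounts of 1 and 64, 2 other scalings, filters on dim genes, other probe set choices, other variance models, fits on the 8 arrays compared, and leaving out each array.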

Additional observations from a re-analysis of the deposited data

Results flagged for a closer look

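In 114 combinations of gene and line, from the 38 genes with the largest changes, 10 held 1 array whose gap to the nearest other array exceeded Dixon's critical value for groups of 4; chance flags about 1 in 20 such groups of 4. Of the 10, 4 are 344SQ replicate 4. Sftpb was at 11.43 there against 13.20 to 13.42 on the other 344SQ arrays, Tmprss11e at 7.28 against 5.67 to 5.90, Cldn6 at 12.30 against 6.93 to 7.49 and Aqp1 at 12.44 against 11.29 to 11.46. In 393LN, Apob was at 8.76 on replicate 3 against 5.36 to 5.79, and Cdh13 at 9.91 on replicate 1 against 9.44 to 9.52. Lama3 was at 6.45 on 344SQ replicate 3 against 6.86 to 6.94. In 393P, Rab25 and Cldn4 were lowest on replicate 1, at 11.49 against 11.83 to 11.90 and at 11.57 against 12.88 to 12.91, and Slc14a1 was highest on replicate 4, at 7.85 against 5.78 to 6.09. RNA quality, read from the actin probe sets at both transcript ends (3'/5' ratio), stood at 1.474 for 393P replicate 1 and 1.035 to 1.189 elsewhere.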

How the results depend on the processing

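All 24 genes with the largest changes kept their call and direction in 344SQ against 393LN under every alternative that tested them. Of 122 named genes called in that comparison, 74 kept the call throughout, 36 lost it under an alternative that keeps all arrays and 34 when 1 array was left out. Of the 16 genes named for their difference between 393LN and 393P, 7 kept that call throughout, 7 lost it under an alternative that keeps all arrays of these lines and 6 when 1 array was left out. Among genes named but not called, the change of Nkx2-1 was 0.00 with array weights and -0.06 (without 344SQ replicate 1) to 0.15 with 1 array left out, and that of Kit -0.28 to 0.02 (without 344SQ replicate 4), and 0.01 without that array and 393LN replicate 3, a pair chosen after seeing the data. With 1 array left out, 427 to 705 genes rose and 740 to 1170 fell in 344SQ against 393LN, or 199 to 265 and 284 to 370 by at least 2-fold; without 344SQ replicate 4 and 393LN replicate 3 together, 737 fell. Without the dimmest 50% of genes, 157 rose and 208 fell by at least 2-fold among the genes kept, with 619 rises and 1270 falls of any size. Between 393LN and 393P, 105 to 247 genes were higher and 48 to 166 lower with 1 array left out, 118 and 56 on only those 8 arrays, 552 and 331 with array weights, and 89 and 66 without 393LN replicate 3 and 393P replicate 1 together; the cause was not tested. Quantile normalization moved the share of those calls that are higher in 393LN from 71.5% to 55.8%. No paired analysis was possible because the labels give no replicate numbers shared between lines.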
